A study of Homo sapiens with 15 samples.

Results

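Inflammatory chemokine genes were followed through all arrays of a study in which endothelial cells received exosomes from T cell lines. The members are the 10 chemokine genes, CXCL1, CXCL2, CXCL3, CXCL5, CXCL6, CXCL8, CCL2, CCL5, CCL20 and CX3CL1, of 18417 genes that the platform annotation named by a single symbol. They were chosen by name, with earlier results of these data known. Each gene took its brightest probeset by the mean over 15 arrays, and each of the 10 had 1 such probeset. The cells were HUVEC, which are primary endothelial cells from the human umbilical vein, and exposure to exosomes lasted 6 h in EGM2 medium. Groups were HUVEC with exosomes of JINB8 cells, HUVEC with exosomes of JK cells, untreated HUVEC, RNA of JINB8 exosomes and RNA of JK exosomes, with 3 arrays each. JK stands for Jurkat, a human T cell leukaemia line that carries the surface receptor CD47, and JinB8 is 1 mutant Jurkat line that lacks CD47. Exosomes are small vesicles that cells release, precipitated here from conditioned medium with an ExoQuick kit. The labels do not say whether the 3 arrays of a group came from separate cultures, so the p-values cover the spread between arrays, part of which may be technical.

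Chemokines are small secreted proteins that steer leukocytes along a gradient, and endothelium holds many of them on surface heparan sulfate so that rolling leukocytes meet them. CXCL1, CXCL2, CXCL3, CXCL5, CXCL6 and CXCL8 attract neutrophils through the receptor CXCR2, and some of them also through CXCR1. CCL2 attracts monocytes through CCR2, and CCL5 attracts T cells and monocytes. CCL20 is the ligand of CCR6, and CX3CL1 is a membrane-anchored ligand that also acts as an adhesion molecule. In endothelial cells IL1 and TNF induce most of these genes through the transcription factor NF-kB together with AP-1 and C/EBP factors.

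Values were array brightness on the log2 scale as deposited, where 1 unit is a factor of 2. The level of whole arrays differed between groups: array medians averaged 5.11 ± 0.02 in HUVEC with JINB8 exosomes, 5.14 ± 0.03 in HUVEC with JK exosomes and 6.97 ± 0.06 in untreated HUVEC, and 5.12 ± 0.01 and 5.11 ± 0.03 in JINB8 and JK exosome RNA (SD, n = 3 each). Against untreated HUVEC the median gene therefore had a log2 fold change of -1.71 with JINB8 exosomes and -1.68 with JK exosomes, and 99.1% and 99.3% of genes passed the test as lower on deposited values. Comparisons with untreated HUVEC were for this reason made on values quantile-normalized over the 9 HUVEC arrays. They report changes relative to the other genes of the array. A change shared by most transcripts and a difference between array sets cannot be told apart. For the change of a single gene, exposure and a difference between array sets cannot be told apart either. Array values of untreated and treated HUVEC correlated at 0.953 to 0.965, and those of the 2 treated groups with each other at 0.990 to 0.993. All 12 endothelial marker genes were brighter than the median gene on every HUVEC array, against 4 or 5 of 12 in exosome RNA. Of 12 T cell markers, 1 was brighter than the median gene on each HUVEC array, and 8 to 10 in exosome RNA. CD47 itself read 4.58, 4.67 and 4.94 in JINB8 exosome RNA and 4.72, 4.69 and 4.72 in JK exosome RNA, so its transcript did not separate the 2 exosome sources (log2 difference 0.02 ± 0.09, SE; limma adjusted p = 0.988) and did not check the labels. These CD47 values lay under the median gene on each exosome RNA array, and how far they lie above background is unknown.

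Promoters are shown because 6 of the members are neighbours on chromosome 4 and share an NF-kB-type element, against which their separate changes can be read. In gene order the cluster ran CXCL8, CXCL6, PF4V1, CXCL1, PF4, PPBP, CXCL5, CXCL3 and CXCL2, while CCL20 lies on chromosome 2, CX3CL1 on chromosome 16, and CCL2 and CCL5 on chromosome 17. RefSeq promoter sequences on GRCh38.p14 were matched for 7 of the 10 genes. Each line gives the 100 bases directly before the annotated start, 5′ to 3′ on the gene's strand, and capitals mark matches to GGAATTTCC or the NF-kB consensus, and TATAAA.
CXCL8, chr4:73740469-73740568, plus strand: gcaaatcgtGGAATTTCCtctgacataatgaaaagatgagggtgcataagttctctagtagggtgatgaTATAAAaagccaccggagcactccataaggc
CXCL1, chr4:73869293-73869392, plus strand: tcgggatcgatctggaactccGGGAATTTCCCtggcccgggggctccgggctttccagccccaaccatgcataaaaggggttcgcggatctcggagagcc
CXCL2, chr4:74099196-74099295, minus strand: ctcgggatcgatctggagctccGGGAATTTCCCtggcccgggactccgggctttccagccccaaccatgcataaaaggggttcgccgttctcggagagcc
CXCL3, chr4:74038690-74038789, minus strand: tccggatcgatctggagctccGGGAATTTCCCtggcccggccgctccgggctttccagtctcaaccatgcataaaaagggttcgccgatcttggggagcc
CXCL5, chr4:73998678-73998777, minus strand: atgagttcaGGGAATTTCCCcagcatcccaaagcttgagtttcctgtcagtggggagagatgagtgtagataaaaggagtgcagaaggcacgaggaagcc
CXCL6, chr4:73836578-73836677, plus strand: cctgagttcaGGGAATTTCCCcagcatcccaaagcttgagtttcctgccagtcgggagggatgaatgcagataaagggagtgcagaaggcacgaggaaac
CCL20, chr2:227813742-227813841, plus strand: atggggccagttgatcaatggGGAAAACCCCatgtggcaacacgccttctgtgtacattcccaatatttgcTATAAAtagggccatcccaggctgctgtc

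The motifs were searched on both strands of windows from 250 bases before to 50 bases after each start. GGAATTTCC was found in 6 of the 7 members, all of the chromosome 4 genes, with its first base at -78 in CXCL1, -77 in CXCL2, -78 in CXCL3, -90 in CXCL5, -89 in CXCL6 and -91 in CXCL8, against 162 of 35116 promoters (0.461%). The NF-kB consensus matched in CXCL1, CXCL2, CXCL3, CXCL5 and CXCL6, overlapping GGAATTTCC, and on the minus strand in CCL20, and in 5.91% of all promoters. TATAAA was found in CXCL8 and CCL20 (11.5% of promoters), and TGANTCA, an AP-1 type sequence, in CXCL8 (7.71%), outside the bases printed. Over 250 upstream bases CXCL1 and CXCL2 shared an identical run of 42 bases, CXCL2 and CXCL3 one of 37, and CXCL5 and CXCL6 one of 45. These matches are descriptions of sequence and do not show that a factor bound. CXCL1, CXCL2 and CXCL3 are also alike in their transcripts, so their probesets may share signal and the single values of these 3 genes are uncertain.

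Most of the chemokine transcripts were lower in HUVEC that had received exosomes of either line. Relative to the other genes of the array, 8 of the 10 genes were lower, 1 was higher and 1 was not called with JINB8 exosomes, and the counts were the same with JK exosomes (limma with Benjamini-Hochberg adjustment over 18417 genes, adjusted p under 0.05). The share of all genes called lower was 23.3% with JINB8 exosomes and 22.4% with JK exosomes, and the share called higher 26% and 26.2%. The median of the 10 log2 fold changes was -0.98 with JINB8 exosomes and -0.97 with JK exosomes, beside 0.02 and 0.02 over all genes. CXCL8, CXCL1, CCL20 and CX3CL1 had the 4 lowest fold changes of the members in both comparisons, and CXCL3 was the gene called higher here and lower on deposited values. Of the 8 genes counted as lower, CCL2 was higher after median centring in both comparisons. The CXCL5 call with JINB8 exosomes passed narrowly (limma adjusted p = 0.048) and was lost in 7 of 9 fits that left out an array. Both comparisons use the same 3 untreated arrays, so the second is no independent repeat of the first. Markers of other cell types were counted on the same scale. Of 9 monocyte and macrophage markers, 0 were higher and 3 lower with JINB8 exosomes (median -0.21) and 1 was higher and 5 lower with JK exosomes (median -0.26). On each HUVEC array 2 of these 9 were brighter than the median gene, and their mean level minus the array median ran from -1.31 to -1.24 with JINB8 exosomes, -1.41 to -1.25 with JK exosomes and -1.32 to -1.11 in untreated cells. After median centring the monocyte counts were 3 higher and 4 lower, and 2 higher and 4 lower. Of 12 T cell markers 3 were lower in each comparison, with 0 and 1 higher, and of 10 fibroblast and mural cell markers 2 and 3 were higher and 2 and 2 lower. The part of such cells in the chemokine values was not tested. In RNA of whole cultures, fewer cells of a type and less RNA per cell cannot be told apart.

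**Figure D1:**
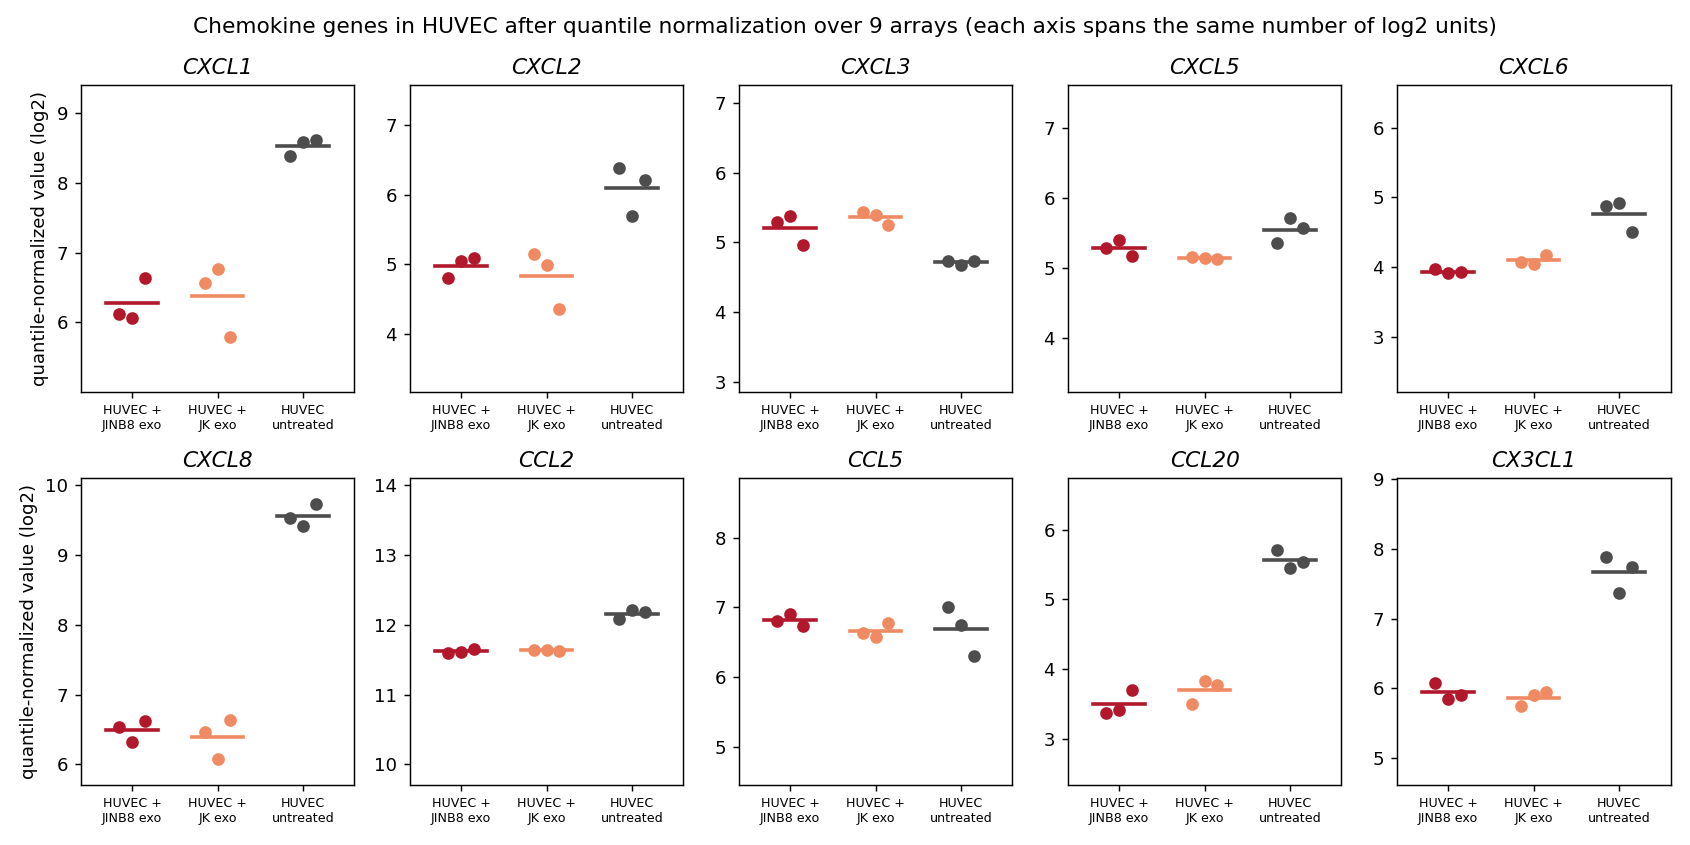
Quantile-normalized log2 values of the 10 genes on the 9 HUVEC arrays, with JINB8 exosomes, JK exosomes and untreated from left to right; points are arrays and lines are group means (n = 3), and every axis spans the same number of log2 units. CXCL8, CXCL1, CCL20 and CX3CL1 stand lower on all 6 exosome-treated arrays than on the untreated ones, CXCL3 stands higher on this scale (and lower as deposited), and CCL5 overlaps.

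CXCL8, which encodes interleukin-8, the prototype neutrophil attractant, had the lowest fold change of the 10. Its quantile-normalized log2 values were 6.54, 6.32 and 6.62 with JINB8 exosomes, 6.46, 6.07 and 6.64 with JK exosomes, and 9.54, 9.42 and 9.74 in untreated HUVEC. All 6 treated arrays lay far under the 3 untreated ones. The fold change was -3.08 ± 0.14 with JINB8 exosomes (SE; 8.46-fold lower; limma adjusted p = 4.9e-08) and -3.18 ± 0.14 with JK exosomes (9.06-fold lower; adjusted p = 3.99e-08). Of all genes, 0.119% and 0.0977% had a lower fold change. By rank within an array, 43% to 48.2% of genes were brighter than CXCL8 with JINB8 exosomes and 42.7% to 52.6% with JK exosomes, against 5.16% to 7.03% in untreated cells, so a gene among the bright transcripts stood near the middle of the array.

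CXCL1 encodes a neutrophil attractant of the same receptor, CXCR2. It read 6.12, 6.06 and 6.63 with JINB8 exosomes, 6.56, 6.76 and 5.79 with JK exosomes, and 8.39, 8.59 and 8.62 in untreated cells. The groups did not overlap with the untreated arrays, while the treated arrays varied among themselves by nearly a log2 unit. CXCL1 fell with both, with fold changes of -2.26 ± 0.22 for JINB8 exosomes (4.79-fold lower; adjusted p = 1.16e-05 by limma) and -2.16 ± 0.22 for JK exosomes (4.47-fold lower; adjusted p = 1.71e-05). Its close relative CXCL2 read 4.80, 5.05 and 5.09 with JINB8 exosomes, 5.15, 4.99 and 4.36 with JK exosomes, and 6.39, 5.70 and 6.21 in untreated cells. CXCL2 was lower on each treated array, with fold changes of -1.12 ± 0.21 (adjusted p = 0.000969) and -1.27 ± 0.21 (adjusted p = 0.000441) by limma. It was dim after exposure, with 69.8% to 74.9% of genes brighter with JINB8 exosomes and 68.8% to 82.3% with JK exosomes, against 46.9% to 59.1% in untreated cells. The third JK array held the lowest CXCL1 and the lowest CXCL2 value of its group.

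CXCL3, the third of these related neutrophil attractants, went the other way on this scale. Its values were 5.29, 5.38 and 4.96 with JINB8 exosomes, 5.44, 5.39 and 5.25 with JK exosomes, and 4.74, 4.68 and 4.74 in untreated cells. Every treated array was above every untreated one, with fold changes of 0.49 ± 0.11 (adjusted p = 0.00292) and 0.64 ± 0.11 (adjusted p = 0.00058) by limma. The direction turns on deposited values, where CXCL3 read 4.60, 4.69 and 4.31 with JINB8 exosomes, 4.80, 4.79 and 4.62 with JK exosomes, and 5.96, 6.02 and 6.14 in untreated cells. It was thus called lower there (-1.51 and -1.31), less so than the median gene, and it stayed higher after median centring (0.33 and 0.48). CXCL3 was a dim probeset on HUVEC arrays: 64.7% to 72% of genes were brighter with JINB8 exosomes, 63.6% to 67% with JK exosomes and 75.9% to 77% in untreated cells.

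CXCL5 and CXCL6 encode a further pair of neutrophil attractants, and their promoters share the longest identical run among the 7 genes. CXCL6 read 3.97, 3.91 and 3.93 with JINB8 exosomes, 4.08, 4.05 and 4.17 with JK exosomes, and 4.88, 4.92 and 4.50 in untreated cells. It was lower on all treated arrays, with fold changes of -0.83 ± 0.11 (adjusted p = 7.74e-05) and -0.67 ± 0.11 (adjusted p = 0.000383) by limma. CXCL6 was a dim probeset in all HUVEC groups. Of all genes, 88.7% to 89.6% were brighter with JINB8 exosomes, 85.5% to 87.3% with JK exosomes and 72.8% to 80% in untreated cells. How far these values lie above background is unknown. CXCL5 read 5.28, 5.40 and 5.17 with JINB8 exosomes, 5.15, 5.14 and 5.13 with JK exosomes, and 5.35, 5.72 and 5.57 in untreated cells. The JK arrays lay under the untreated ones (-0.41 ± 0.10, limma adjusted p = 0.00634), while the JINB8 arrays overlapped them. CXCL5 was dim as well, with 64.3% to 68.4% of genes brighter with JINB8 exosomes, 68.7% to 69.1% with JK exosomes and 58.7% to 65.2% in untreated cells. For JINB8 exosomes the CXCL5 fold change of -0.27 ± 0.10 passed narrowly (limma adjusted p = 0.048), and the call was lost without untreated replicate 2 (-0.18, adjusted p = 0.176), without JINB8 replicate 3 (-0.21, adjusted p = 0.156) and in 5 other fits that left out an array. With JINB8 exosomes 7 members did not overlap with the untreated arrays on the lower side, beside 27.1% of all genes, and with JK exosomes 8 did, beside 25.9%.

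CCL20, the ligand of CCR6 on dendritic cells and lymphocytes, read 3.37, 3.41 and 3.70 with JINB8 exosomes, 3.50, 3.83 and 3.77 with JK exosomes, and 5.71, 5.45 and 5.54 in untreated cells. The treated arrays were all lower, with fold changes of -2.07 ± 0.12 (adjusted p = 2.37e-07) and -1.87 ± 0.12 (adjusted p = 5.33e-07) by limma. It was among the dimmest genes after exposure, with 92.8% to 96.8% of genes brighter with JINB8 exosomes and 90.9% to 95.3% with JK exosomes, against 59% to 63.4% in untreated cells. With no detection calls in the table, how far these low values lie above background is unknown. CX3CL1, which encodes the membrane-anchored chemokine fractalkine, read 6.07, 5.85 and 5.90 with JINB8 exosomes, 5.75, 5.91 and 5.94 with JK exosomes, and 7.88, 7.37 and 7.74 in untreated cells. It fell with no overlap, with fold changes of -1.72 ± 0.12 for JINB8 exosomes (adjusted p = 1.21e-06 by limma) and -1.80 ± 0.12 for JK exosomes (adjusted p = 9.39e-07).

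CCL2, which encodes the monocyte attractant MCP-1, was one of the brightest genes of the cells throughout. Its values were 11.60, 11.61 and 11.66 with JINB8 exosomes, 11.64, 11.64 and 11.63 with JK exosomes, and 12.08, 12.21 and 12.19 in untreated cells. Values within a group differed little, and the treated groups were lower on average (-0.53 ± 0.07, adjusted p = 0.000122, and -0.52 ± 0.07, adjusted p = 0.000151, by limma). This direction depends on the scaling: with each array's median set to 0, CCL2 was higher by 0.25 (adjusted p = 0.0177) with JINB8 exosomes and by 0.21 (adjusted p = 0.0484) with JK exosomes. By rank, 0.467% to 0.538% of genes were brighter with JINB8 exosomes and 0.494% to 0.505% with JK exosomes, against 0.136% to 0.195% in untreated cells. CCL5, also known as RANTES, was the member without a call. It read 6.80, 6.91 and 6.73 with JINB8 exosomes, 6.64, 6.57 and 6.77 with JK exosomes, and 7.01, 6.75 and 6.30 in untreated cells, which varied more than the treated ones. Its fold changes were 0.12 ± 0.15 (95% interval -0.20 to 0.45, adjusted p = 0.512) and -0.03 ± 0.15 (-0.36 to 0.30, adjusted p = 0.882) by limma, and as deposited it was lower (-1.64 and -1.75), near the shift of the median gene.

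**Figure D2:**
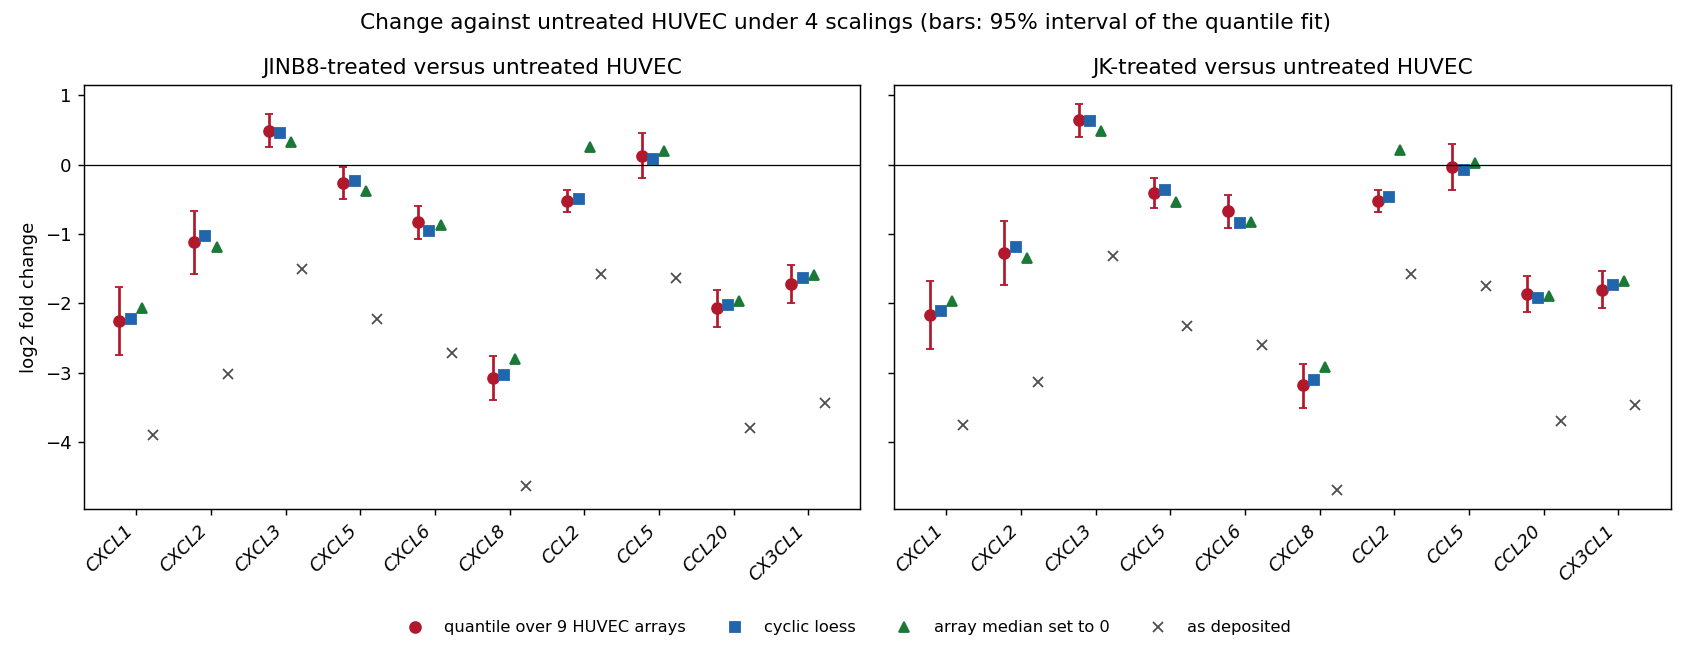
Log2 fold change of each gene against untreated HUVEC under 4 scalings, with JINB8 exosomes in the left panel and JK exosomes in the right; bars are the 95% interval of the quantile fit (3 against 3 arrays). CXCL8, CXCL1, CCL20, CX3CL1, CXCL2 and CXCL6 lie under 0 on all scales, CCL2 turns from -0.53 and -0.52 to 0.25 and 0.21 with the array median set to 0, and as deposited all 10 lie under 0.

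On deposited values all 10 genes were lower with exosomes of either line, as 99.1% and 99.3% of genes were, and the members' median was -2.87 in both comparisons beside -1.71 and -1.68 for all genes. Median centring gave 2 higher and 7 lower members in both comparisons. CXCL8, CXCL1, CXCL2, CXCL5, CXCL6, CCL20 and CX3CL1 were lower on the deposited, quantile, cyclic loess and median-centred scales, with the CXCL5 call for JINB8 exosomes lost under cyclic loess (adjusted p = 0.0565).

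Other genes of the chemokine pathway were counted by 6 lists of 119 measured genes in all. On deposited values 118 of the 119 were lower with JINB8 exosomes and all 119 with JK exosomes, so a gene said to rise did so relative to the other genes of the array. List counts are to be set against the shares of all genes called, given above as 26% higher and 23.3% lower with JINB8 exosomes and 26.2% and 22.4% with JK exosomes. With the array median set to 0 those shares were 38.1% and 18.7%, and 35.1% and 19.5%. Among 29 other chemokine ligands, 7 rose and 6 fell with JINB8 exosomes and 5 rose and 5 fell with JK exosomes on the quantile scale, with median fold changes of -0.04 and -0.06, and 8 and 6, and 7 and 7, after median centring. CXCL12, the ligand of CXCR4, read 3.20, 3.23 and 3.07 with JINB8 exosomes and 3.15, 3.00 and 3.25 with JK exosomes, against 7.87, 7.35 and 7.34 in untreated cells as deposited, and its fold changes on the quantile scale were -2.65 and -2.64 (adjusted p = 1.29e-07 and 1.4e-07 by limma). CCL28, a mucosal chemokine, fell as well (-0.67 and -0.56), while CCL16 (1.03 and 0.88) and XCL1 (0.61 and 0.33), a T and natural killer cell chemokine with a near-identical paralog, rose relative to other genes and were lower as deposited. CCL28, CCL16 and XCL1 lay under the median gene on each HUVEC array, and CXCL12 did so on each treated array. How far these dim values lie above background is unknown. Of the ligands that lie inside the chromosome 4 cluster, PF4, a platelet chemokine, had fold changes of 0.37 and 0.37, which passed on the quantile scale and not after median centring (adjusted p = 0.059 and 0.0937). Its neighbour PPBP, the precursor of another platelet chemokine, had 0.43 (adjusted p = 0.00108) with JINB8 exosomes and 0.16 (adjusted p = 0.132) with JK exosomes.

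Of 21 chemokine receptors, 2 rose and 8 fell with JINB8 exosomes, and 1 rose and 8 fell with JK exosomes, with a median of -0.21 in both; after median centring the counts were 4 and 8, and 2 and 9. CXCR4, the CXCL12 receptor, fell, with fold changes of -1.53 and -1.25 (limma adjusted p = 2.64e-06 and 1.32e-05). ACKR3, which scavenges CXCL12, fell too (-0.50 and -0.64), as did the atypical receptor CCRL2 (-1.13 and -0.95) and CCR4 (-1.21 and -1.23). CCR4 was a dim probeset in treated and untreated cells. As deposited it read 3.25, 3.06 and 3.03 with JINB8 exosomes and 3.03, 3.10 and 3.06 with JK exosomes. In untreated cells it read 6.03, 6.12 and 6.22. CCR4, ACKR3 and CCRL2 lay under the median gene on each HUVEC array. In the list for shedding, trimming and heparan sulfate presentation, 5 of 16 rose and 4 fell in each comparison, close to the shares of all genes. After median centring 9 were higher and 4 lower with JINB8 exosomes, and 8 higher and 3 lower with JK exosomes. EXT2 rose (0.79 and 0.92) and EXT1 fell (-0.86 and -0.83), although both encode subunits of the heparan sulfate polymerase. NDST1, a heparan sulfate sulfotransferase, fell (-0.71 and -0.84), and DPP4, a peptidase that trims chemokines, rose (1.29 and 1.04). EXT2 and DPP4 were lower as deposited.

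Among regulators of chemokine transcription more genes fell than rose. Of 21 transcription factors and inhibitors that act at chemokine promoters, 1 rose and 13 fell with JINB8 exosomes and 2 rose and 14 fell with JK exosomes, with medians of -0.39 and -0.53 beside 0.02 for all genes. After median centring the counts were 5 higher and 10 lower, and 5 higher and 11 lower. RELA, the p65 subunit of NF-kB, read 7.92, 7.93 and 7.93 with JINB8 exosomes and 7.96, 7.84 and 7.79 with JK exosomes, against 10.25, 10.06 and 10.19 in untreated cells as deposited. Its fold changes on the quantile scale were -0.76 and -0.81 (limma adjusted p = 1.76e-05 and 1.23e-05). FOSL1, an AP-1 subunit, fell (-1.19 and -1.31), as did CEBPB, a C/EBP factor (-0.79 and -0.88), and NFKBIB, an inhibitor of NF-kB (-0.75 and -0.85). Activators and inhibitors of NF-kB were thus both among the genes that fell.

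Upstream, 7 of 19 genes of IL1, TNF and TLR signalling rose and 8 fell with JINB8 exosomes, and 4 rose and 6 fell with JK exosomes. The balance turned with the scaling, since after median centring 9 were higher and 4 lower with JINB8 exosomes, and 8 higher and 5 lower with JK exosomes. TLR3, the receptor for double-stranded RNA, read 5.25, 5.29 and 5.51 with JINB8 exosomes and 5.42, 5.40 and 5.37 with JK exosomes, against 8.63, 8.81 and 8.32 in untreated cells as deposited, and its fold changes on the quantile scale were -1.52 and -1.53 (limma adjusted p = 1.78e-06 and 1.84e-06). TLR2, a receptor for bacterial lipoproteins, fell (-0.80 and -0.81) and lay under the median gene on each HUVEC array. TICAM1, the TLR3 adaptor, fell too (-0.39 and -0.75), and the first of its changes did not pass after median centring (-0.17, limma adjusted p = 0.132). IL1RAP, a subunit of the IL1 receptor, rose (0.67 and 0.70) and was lower as deposited. Of 13 genes for RNA-binding proteins that act on chemokine mRNA stability, 9 rose and 2 fell with JINB8 exosomes and 7 rose and 2 fell with JK exosomes, with medians of 0.31 and 0.21, and 9 and 2, and 9 and 1, after median centring. TIA1 (0.86 and 1.01), TIAL1 (0.89 and 0.78), ELAVL1 (0.59 and 0.49) and PABPC1 (0.69 and 0.64) rose relative to other genes, and all 13 genes were lower as deposited.

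HUVEC that had received exosomes of the CD47-deficient line did not differ detectably from those that had received JK exosomes in any of the 10 genes. None passed in the limma fit, none had an unadjusted p under 0.05, and 0% of all genes were called, while 9.11% had an unadjusted p under 0.05. On deposited values the log2 differences, JINB8 minus JK, lay between -0.20 and 0.11. CXCL3 stood at -0.20 ± 0.11 (95% interval -0.44 to 0.04, adjusted p = 0.621) and CCL5 at 0.11 ± 0.15 (-0.20 to 0.43, adjusted p = 0.854). For CCL2 the interval was narrow, -0.18 to 0.17 around -0.00. For CXCL1 it was wide, -0.65 to 0.34 around -0.15.

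As deposited CXCL1 read 5.48, 5.41 and 6.05 with JINB8 exosomes and 6.02, 6.22 and 5.15 with JK exosomes, so the JINB8 range lay inside the JK range. Without JK replicate 3 the CXCL1 difference was -0.48 and without JK replicate 2 it was 0.06, and neither passed (limma adjusted p = 0.253 and 0.994). Over all genes, JK replicate 3 deviated from its group mean as JINB8 replicates 1 and 2 did from theirs (r = 0.31 and 0.23 across genes), and JINB8 replicate 3 as JK replicates 1 and 2 did (r = 0.28 and 0.33), so arrays of both groups shared variation that the labels do not account for; its part in these comparisons was not tested. CXCL2 read 4.12, 4.36 and 4.44 with JINB8 exosomes and 4.48, 4.37 and 3.75 with JK exosomes, with JK replicate 3 lowest. CXCL8 read 5.93, 5.68 and 6.04 with JINB8 exosomes and 5.90, 5.51 and 6.06 with JK exosomes, and there JK replicate 3 was the highest of its group. CXCL6 was the member whose groups did not overlap, at 3.40, 3.37 and 3.37 with JINB8 exosomes and 3.42, 3.45 and 3.59 with JK exosomes (difference -0.11 ± 0.10, limma adjusted p = 0.798); 9.78% of all genes were separated in this direction.

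**Figure D3:**
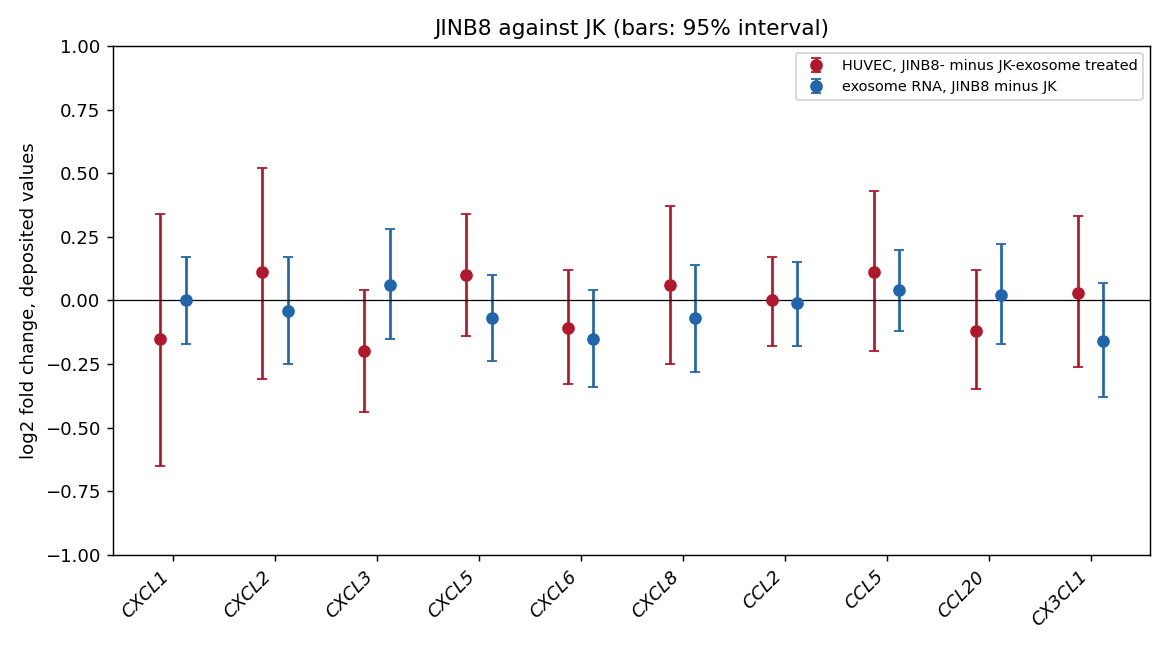
Log2 difference, JINB8 minus JK, of each gene in HUVEC given the exosomes and in the exosome RNA, on deposited values; points are estimates and bars are 95% intervals (3 against 3 arrays each). All 20 intervals include 0, and the widest is that of CXCL1 in HUVEC, -0.65 to 0.34.

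The exosome RNA of the 2 lines also did not differ detectably in these genes. None of the 10 was called and none had an unadjusted p under 0.05, beside 0.679% of all genes called by limma, 123 higher and 2 lower, and 8.06% of genes with an unadjusted p under 0.05. The differences, JINB8 minus JK, ran from -0.16 ± 0.10 for CX3CL1 (95% interval -0.38 to 0.07, adjusted p = 0.792) to 0.06 ± 0.10 for CXCL3 (-0.15 to 0.28, adjusted p = 0.945). CX3CL1 read 6.26, 5.97 and 6.05 in JINB8 exosome RNA and 6.24, 6.43 and 6.08 in JK exosome RNA. CXCL8 read 5.78, 6.14 and 6.06 in JINB8 exosome RNA and 6.07, 5.99 and 6.12 in JK exosome RNA. Of these 119 pathway genes, PABPC1, a poly(A)-binding protein gene, was the one called, at 7.43, 7.44 and 7.41 in JINB8 exosome RNA and 6.83, 6.84 and 6.39 in JK exosome RNA (0.74 ± 0.11, limma adjusted p = 0.00716). A test of whether the JINB8 minus JK difference was unlike in HUVEC and in exosome RNA passed for none of the 10 genes, with adjusted p between 0.627 and 0.989.

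**Figure D4:**
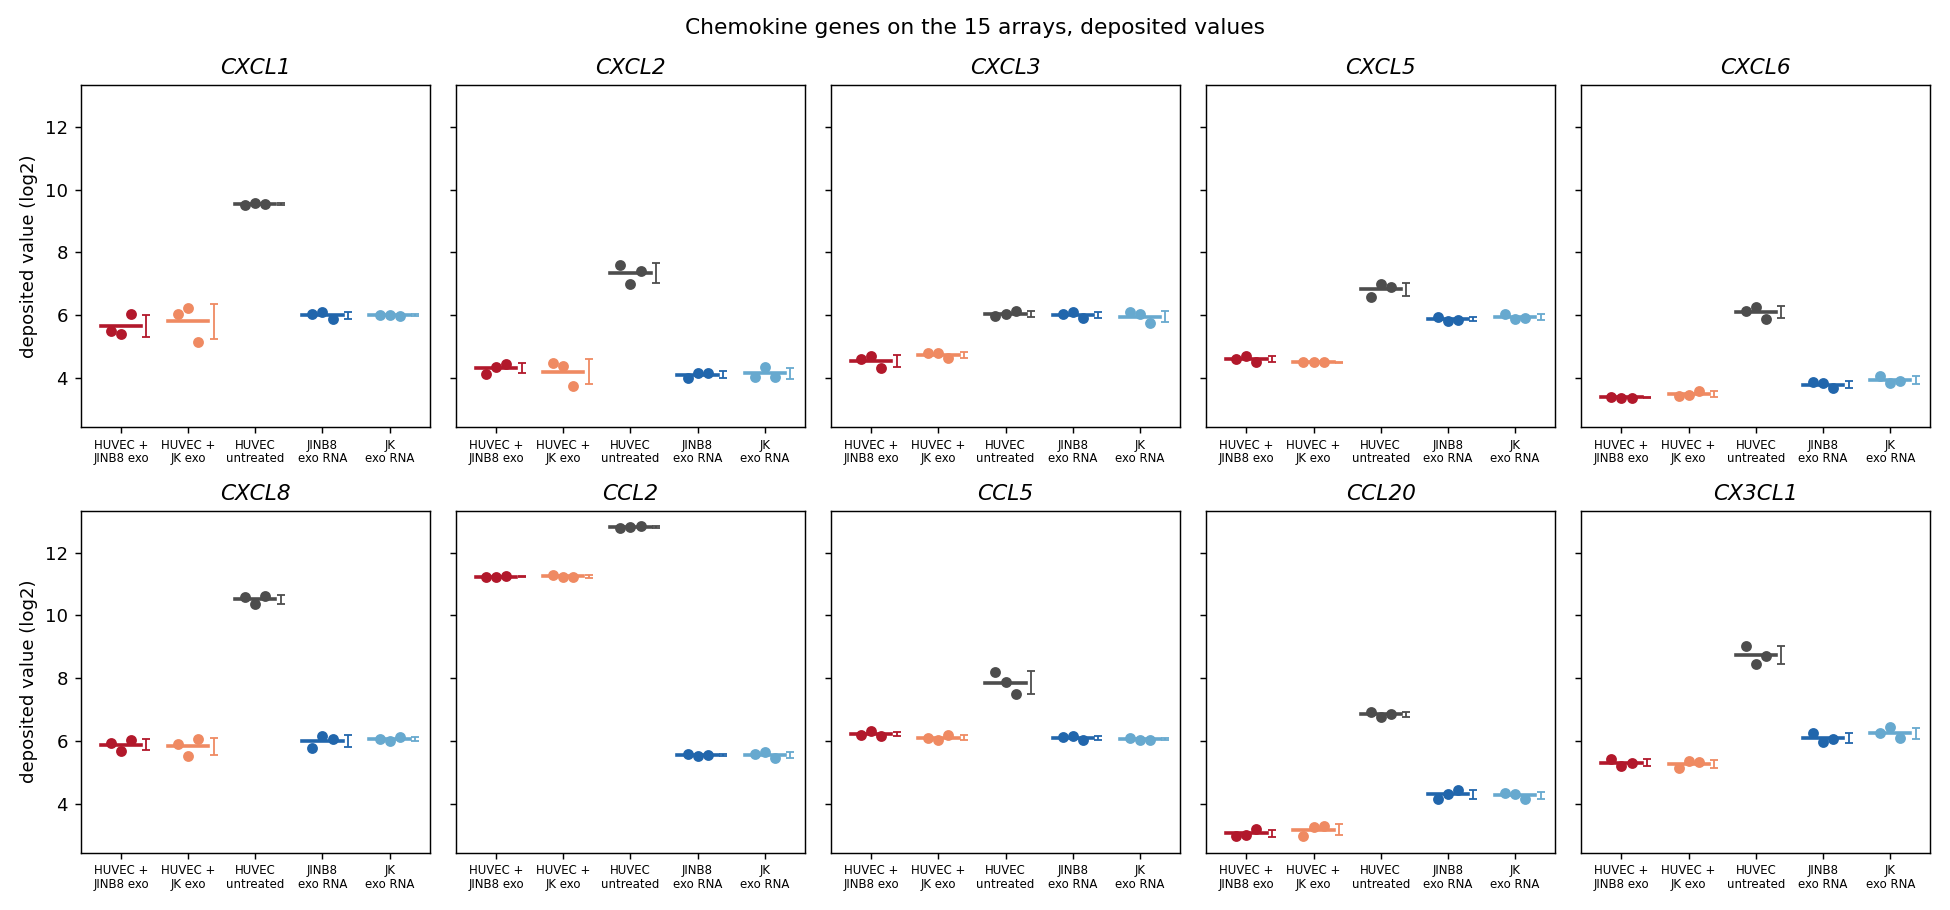
Deposited log2 values of the 10 genes on all 15 arrays, with HUVEC given JINB8 exosomes, HUVEC given JK exosomes, untreated HUVEC, JINB8 exosome RNA and JK exosome RNA from left to right; points are arrays, lines are group means and the bars beside them span 1 SD either way (n = 3). Untreated HUVEC stand above the other groups in 9 genes, and CCL2 is the gene whose treated arrays stand above exosome RNA.

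Across the 5 groups as deposited, 9 of the 10 genes were higher on all untreated arrays than on the other 12 arrays, as were 89.3% of all genes, and CXCL3 overlapped. Between the 6 exosome-treated HUVEC arrays and the 6 exosome RNA arrays, CCL2 was the one member that was higher in the cells (11.21 to 11.29, against 5.45 to 5.64 in exosome RNA); 47.1% of all genes were. CXCL3, CXCL5, CXCL6, CCL20 and CX3CL1 were lower in the treated cells, as were 41.3% of all genes. CCL20, for example, ran from 2.96 to 3.27 in treated cells and from 4.14 to 4.42 in exosome RNA. CXCL1, CXCL2, CXCL8 and CCL5 overlapped, with CXCL8 at 5.51 to 6.06 in treated cells and 5.78 to 6.14 in exosome RNA. The levels in cells and in exosome RNA were not tested against each other, because how their arrays were scaled to each other is not given in the sources used here. Array values of the 2 kinds correlated at 0.496 to 0.642.

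Among all other genes, UGDH, MEF2C, IL17RA, UNC5B and UTP25 had profiles most like the members' mean over the 9 HUVEC arrays. Their root mean square difference from that mean was 0.05 log2 units for UGDH and 0.06 for the other 4 genes. Single members lay farther from their own mean, between 0.23 for CXCL6 and 0.96 for CXCL8, so the mean profile is that of no single chemokine.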

How the data were processed

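Total RNA of 15 samples was hybridised to Affymetrix arrays after 300 ng per sample were labelled, per the labels' protocols, and processed with Affymetrix Expression Console, per the submitters' processing notes. The deposited values are log2 brightness of 33297 probesets, which the authors gave without detection calls; for its version, background correction and normalization no source used here gives a value. The platform annotation gave 1 symbol to 19460 probesets, several to 1754, and did not list 12083. A gene took its brightest probeset by the mean over all arrays, which left 18417 genes. HUVEC groups were fitted in 1 model over 9 arrays and exosome RNA in another over 6 (limma 3.58.1 in R 4.3.3, lmFit and eBayes; residual degrees of freedom were 6 and 4). The test of whether the JINB8 minus JK difference was unlike in HUVEC and exosome RNA used 1 fit over all 15 arrays. Adjustment was by Benjamini-Hochberg over all genes, with 0.05 as threshold. Comparisons with untreated HUVEC used quantile-normalized values and the others deposited values. With 3 arrays a group, their number limits the precision, and without detection calls signal over background cannot be judged here. The fit was tested on simulated data with independent noise and few changed genes. That setting is unlike the comparisons with untreated HUVEC, so the test does not speak to their error rates. The members and the gene lists were chosen with earlier results of these data known. Named are all members, per list up to 4 called genes with the smallest p against untreated HUVEC and any called elsewhere, the 5 genes of most similar profile, and PF4 and PPBP, added after their values were seen as neighbours of the members. Alternatives were the scaling, a filter on dim genes, the probesets used, the variance model, array weights, the arrays in the fit, a replicate block and leaving out each array. Same-numbered replicates showed no steady pairing: their deviations from group means correlated at -0.01, 0.06 and 0.07 between JINB8-treated and untreated HUVEC, 0.24, -0.08 and -0.00 between JK-treated and untreated HUVEC, -0.20, -0.18 and -0.45 between JINB8- and JK-treated HUVEC, and 0.03, -0.02 and -0.04 in exosome RNA. Between JINB8- and JK-treated HUVEC, 4 differently numbered pairs (JINB8 replicate 1 with JK replicate 3, 2 with 3, 3 with 1 and 3 with 2) correlated at 0.31, 0.23, 0.28 and 0.33. These 4 values are tied to the -0.45 between the third replicates, since deviations within a group sum to 0.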

Additional observations from a re-analysis of the deposited data

How the results depend on the processing

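The counts of called chemokine genes, 9 with JINB8 exosomes and 9 with JK exosomes against untreated HUVEC, and 0 between JINB8 and JK in HUVEC and in exosome RNA, stayed within 1.5 times under each alternative run except one: without the 40% dimmest genes 5 members were left and 4 were called in each comparison with untreated HUVEC. Of all genes, 49.3% were called with JINB8 exosomes and 48.6% with JK exosomes. Without the dimmest genes these shares were 58.5% and 57.4%. Leaving out each array in turn gave 8 to 9 called members with JINB8 exosomes, 9 with JK exosomes, and 0 in both others. With the replicate block the counts were 9, 9, 0 and 0, and it changed no other call of a member. On deposited values CXCL3 turned to -1.51 (JINB8) and -1.31 (JK), and CCL5 to -1.64 (JINB8). With median centring CCL2 turned to 0.25 (JINB8) and 0.21 (JK). CXCL5 with JINB8 exosomes lost its call under cyclic loess (-0.23), with a variance trend (adjusted p = 0.0549), with the 6 compared arrays alone (0.0769), and in 7 of 9 fits without an array (-0.37 to -0.18). The splits of all genes moved with centring: with JINB8 exosomes 4791 higher and 4283 lower became 7025 and 3450 with median centring, and with JK exosomes 4829 and 4121 became 6462 and 3587. Between JINB8- and JK-treated HUVEC all-gene calls were 0, and 377 with array weights, 93 with all 15 arrays, 23 with a variance trend, 8 with median centring, 8 without dim genes, 6 with cyclic loess and at most 3 without an array. In exosome RNA they were 125, with 54 to 181 over the alternatives. The causes were not tested.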
